A study of Mus musculus with 9 samples.

Results

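Apln, which encodes the secreted peptide apelin, and Aplnr, which encodes its G protein-coupled receptor, were the 2 genes examined, taken by gene name from a table of 46078 genes. They were measured by RNA-seq in cells labelled as endothelial cells (ECs) and sorted from the bone marrow (BM) of wild type B6 mice. The cells were CD45-Ter119-CD31+ and were split by Sca-1, the surface protein encoded by Ly6a. There were 4 Sca-1+ libraries, numbered 7, 13, 15 and 19 in their labels, and 5 Sca-1- libraries, numbered 8, 10, 14, 16 and 22. The titles also carry a tag that the labels do not explain, CD452 for libraries 13, 14 and 22 (for 10 its number alone), wt with a shared number for 15 and 16, wt with other numbers for 8 and 19, and none for 7. No group received a treatment, neither age nor sex stands in the labels, and the number of mice behind each library is not given there.

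Apelin is made as a longer precursor that proprotein convertases trim to short active peptides. The receptor couples to inhibitory G proteins and recruits beta-arrestins, and in endothelium its signalling has been tied to nitric oxide release, vessel calibre and sprouting. In growing vessels apelin is known as a ligand of tip cells, while the receptor is carried by stalk and venous endothelium.

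In the GRCm38 build, Apln lies on the minus strand of chromosome X from 48025146 to 48034853 (ENSMUSG00000037010), with 1 annotated transcript of 3 exons and 3149 exon bases. Aplnr lies on the plus strand of chromosome 2 from 85136225 to 85139923 (ENSMUSG00000044338), where its 2 transcripts merge into 1 exon block of 3699 bases. No exon of either gene overlaps an exon of another annotated gene. A RefSeq promoter was matched for Apln but not for Aplnr. It covers the 250 bases before the start of Apln (GRCm38.p6, chrX:48034854-48035103, minus strand). Capitals mark every match on either strand to the letters searched.
Apln promoter: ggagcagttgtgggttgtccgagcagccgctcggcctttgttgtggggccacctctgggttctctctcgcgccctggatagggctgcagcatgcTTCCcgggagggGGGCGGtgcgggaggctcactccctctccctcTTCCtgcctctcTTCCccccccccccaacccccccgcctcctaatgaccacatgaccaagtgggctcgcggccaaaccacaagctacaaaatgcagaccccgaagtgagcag
Its GC content was 65.2%. It held the Sp1 box GGGCGG once, 144 bases before the start, and 3 matches to the Ets core GGAA, each read as TTCC here. The Sp1 box occurred in 32.9% of 27025 promoter windows of the same length and the Ets core in 93.4%. The hypoxia response cores ACGTG and GCGTG, the E-box CACGTG, which contains ACGTG, and the forkhead site TGTTTAC had no match, against shares of 16.6%, 28.2%, 6.05% and 3.09% of all windows.

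Library totals lay between 23058385 and 24657204 counts in Sca-1+ and between 21581653 and 25959818 in Sca-1-. Levels are CPM, counts scaled to a common library size after TMM normalization, on which 3 counts, taken as the floor, equal 0.0996 to 0.209 CPM. Ly6a averaged 1133 CPM in Sca-1+ and 0.678 CPM in Sca-1-, as the labels require. The endothelial label was checked against 17 general endothelial genes, of which 16 were higher in Sca-1+ and none was at 0 in either fraction. Their summed share of the counts was 0.837% to 1.12% in Sca-1+ and 0.0733% to 0.0859% in Sca-1-. Myct1, the 1 that was not higher in Sca-1+, is part of this sum. Their mean log2 CPM, in which a single gene weighs less, was 8.47 to 8.70 in Sca-1+ and 3.11 to 4.72 in Sca-1-. All 16 megakaryocyte genes were lower in Sca-1+, with 0.00504% to 0.0117% of the counts against 3.18% to 6.94%. Cdh5, the endothelial cadherin, averaged 264 CPM in Sca-1+ and 7.14 CPM in Sca-1-, and Pf4, the platelet factor of megakaryocytes, 14.3 and 6632 CPM. Pecam1, which encodes CD31, did not pass the test, at 1399 ± 261 CPM (SD, n = 4) and 836 ± 613 CPM (n = 5). By these lists the Sca-1- libraries, though labelled endothelial, held a larger share of megakaryocyte than of endothelial gene counts. In such bulk libraries fewer endothelial cells, less RNA per endothelial cell and RNA of other cells cannot be told apart. This bears on every level given for Sca-1-, also of genes lower in Sca-1+.

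Both genes of the pathway were higher in Sca-1+ ECs, and no Sca-1- library reached any Sca-1+ library. Apln, the ligand, averaged 30.7 ± 21.8 CPM (SD, n = 4) in Sca-1+ and 0.901 ± 0.958 CPM (n = 5) in Sca-1-, a ratio of means of 34.1. Aplnr, the receptor, averaged 429 ± 175 CPM and 4.57 ± 7.27 CPM, a ratio of 93.9. On the log2 scale the differences were 5.05 (SE 1.11, adjusted p = 0.0043) and 6.53 (SE 1.26, adjusted p = 0.0020) by edgeR's quasi-likelihood test with Benjamini-Hochberg adjustment. Of 15937 genes tested, 23.3% were higher and 21.4% lower in Sca-1+, and 24.8% were higher in every Sca-1+ library than in any Sca-1- library. With library totals alone as the scale, 4158 genes were higher and 2431 lower, in place of 3721 and 3416. A call or a lack of overlap is therefore common in these data. By size, Apln ranked 380 and Aplnr 161 among the log2 fold changes of the genes tested, from the largest down.

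The Apln counts were 1710, 443, 1095 and 300 in Sca-1+ libraries 7, 13, 15 and 19, or 58.3, 15.1, 37.8 and 11.6 CPM. In Sca-1- libraries 8, 10, 14, 16 and 22 the counts were 0, 10, 0, 57 and 47, or 0, 0.698, 0, 1.89 and 1.91 CPM. Libraries 7 and 15 were the high ones of Sca-1+, 13 and 19 the low ones, and the 2 Sca-1- libraries without a read stood apart from the other 3. For a count of 0 the 95% exact Poisson interval reaches up to 0.222 CPM in library 8 and 0.156 CPM in library 14. The 95% exact Poisson intervals of libraries 16 and 22 (1.43 to 2.45 and 1.41 to 2.55 CPM) overlap, whereas library 10 lies lower (0.335 to 1.28 CPM). These intervals and limits cover counting error only. The lowest Sca-1+ library was 6.07-fold above the highest Sca-1- library.

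The Sca-1+ libraries differed among themselves in Apln by more than their Poisson intervals span. These intervals take reads as independent, and the counts include PCR copies, so they may be too narrow. The highest was 5.02-fold above the lowest, and the counting intervals of library 7 (55.6 to 61.1 CPM), library 15 (35.6 to 40.1 CPM) and library 13 (13.7 to 16.6 CPM) did not overlap. The coefficient of variation was 70.9%, higher than that of 93.6% of 8253 genes within 2 log2 units of its average level. Per kilobase of exon, Apln ranked above 83.3% and 76.4% of 15865 genes in libraries 7 and 15, but above 59.4% and 52.8% in libraries 13 and 19.

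The Aplnr counts were 18847, 11383, 13432 and 5723 in Sca-1+ libraries 7, 13, 15 and 19, or 642, 388, 464 and 222 CPM. In Sca-1- libraries 8, 10, 14, 16 and 22 the counts were 9, 18, 1, 522 and 90, or 0.541, 1.26, 0.0424, 17.3 and 3.66 CPM. Sca-1- library 16 stood above the other 4, and library 14 was under the floor. The order within Sca-1+ was the same as for Apln, namely 7, 15, 13 and 19 from high to low. The receptor spread less, with 2.90-fold between the highest and the lowest Sca-1+ library and a coefficient of variation of 40.7%. Against 3784 genes of like average level that was still higher than in 92.1% of them. The lowest Sca-1+ library lay 12.8-fold above Sca-1- library 16, the nearest one. Without library 16 the log2 difference was 8.25 in place of 6.53.

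Aplnr ranked among the more abundant transcripts of Sca-1+ ECs, above 95.0% to 98.6% of the 15865 genes per kilobase of exon in the 4 libraries. In Sca-1- it ranked above 57.6% of the genes in library 16 but above 9.89% to 29.9% in the other 4.

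**Figure D1:**
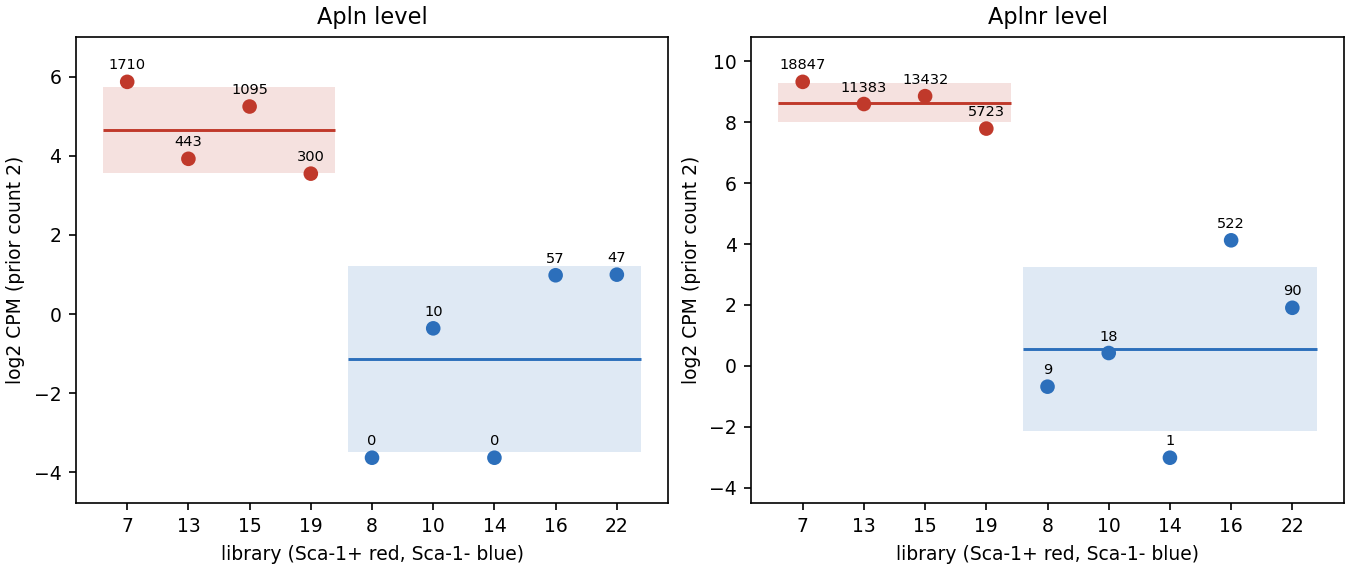
Levels of Apln and Aplnr in each library, as log2 CPM with a prior count of 2, with the raw count printed above each point; lines are group means and shaded bands span 1 SD on either side. All 4 Sca-1+ libraries lie above all 5 Sca-1- libraries for both genes, Apln spreads from 11.6 to 58.3 CPM within Sca-1+, and Sca-1- library 16 is nearest to Sca-1+ for Aplnr.

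Since Apln is X-linked and sex is not labelled, counts of Xist, the RNA that silences the X chromosome in females, and of 3 Y-linked genes (Ddx3y, Eif2s3y and Kdm5d) were set beside it. Libraries 7 and 8 held Y-linked counts (6224 and 2285) with 0 and 1 counts of Xist. Libraries 15 and 16 held both, with 3499 and 2045 counts of Xist beside 2563 and 1570 of the Y-linked genes. The other 5 libraries held 1176 to 4680 counts of Xist and at most 2 Y-linked counts. Within Sca-1+, the libraries with Y-linked counts, 7 and 15, were thus those with more Apln, at 58.3 and 37.8 CPM against 15.1 and 11.6 CPM. Within Sca-1-, library 8 had no Apln read and library 16 had 57. Among the 5 libraries with Xist alone the log2 difference of Apln was 3.93 (SE 1.39), which did not pass the edgeR test (adjusted p = 0.090, against 3646 genes called in that smaller fit). With the 3 classes of libraries as a term in the fit over all 9, it was 4.84 (edgeR adjusted p = 0.014). The corresponding differences of Aplnr were 7.51 (adjusted p = 0.014) and 7.42 (adjusted p = 0.0018). The 4 libraries with the CD452 tag all held Xist alone. Among those 4, with 13 as the only Sca-1+ library and assumed to vary like the others, the log2 difference of Apln was 4.10 (edgeR adjusted p = 0.19) and that of Aplnr 7.86 (adjusted p = 0.028). Among the other 5 libraries the differences were 5.11 (edgeR adjusted p = 0.045) and 5.58 (adjusted p = 0.035). These divisions were made after the data had been seen, and the part of sex or of the title tags in the spread of Apln was not tested.

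Apela, which encodes the second ligand of the receptor (elabela, also called toddler), had 6 counts in Sca-1+ library 7, 1 in library 15 and none in the other 7. It failed the filter on low counts and was not tested. Apela lies on chromosome 8 from 65028417 to 65037336, and its exons overlap those of Gm45886 on the same strand.

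The balance of receptor to ligand was compared within libraries, which needs no scaling between them. Per kilobase of exon, Aplnr was 9.38-fold (95% exact binomial interval 8.93 to 9.86) above Apln in Sca-1+ library 7 and 10.4-fold (9.82 to 11.1) in library 15. It was 21.9-fold (19.9 to 24.1) above Apln in library 13 and 16.2-fold (14.5 to 18.3) in library 19. In Sca-1- the ratio was 7.80 (5.92 to 10.4) in library 16, but 1.53 (0.671 to 3.72) in library 10 and 1.63 (1.13 to 2.37) in library 22. In libraries 8 and 14 Apln was at 0 and Aplnr had 9 counts and 1 count, so no ratio is given.

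On the log2 scale, with a prior count of 2, this ratio averaged 3.77 ± 0.565 (SD, n = 4) in Sca-1+ and 1.44 ± 1.25 (n = 5) in Sca-1-. The difference of 2.32 had p = 0.016 in a two-sided exact permutation test, the smallest p that 4 against 5 libraries allow. With a prior count of 0.5 the difference was 1.73 and did not pass (exact permutation p = 0.13). Libraries 8 and 14, with no Apln read, enter both values.

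To set the members against the endothelial RNA of the same library, each was set against the average log2 CPM of those 17 endothelial genes. Relative to that average, Aplnr was at 0.05 in Sca-1+ (SD 0.54, n = 4) and at -3.63 in Sca-1- (SD 2.55, n = 5). The difference of 3.69 had p = 0.032 in the two-sided exact permutation test. Sca-1- library 16, at -0.53, fell within the Sca-1+ range of -0.67 to 0.63, while the other 4 were between -7.29 and -2.69. When any of 7 of the 9 libraries was left out in turn, the exact permutation p of this difference was no longer under 0.05, with differences of 2.77 to 4.46 over all 9 fits. Those fits have fewer splits, so their smallest exact permutation p is 0.036 without a Sca-1+ library and 0.029 without a Sca-1- library.

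Apln did not pass on this scale. Relative to the endothelial average it was at -3.95 in Sca-1+ (SD 0.97, n = 4) and at -5.31 in Sca-1- (SD 2.31, n = 5). The difference of 1.36 did not pass (two-sided exact permutation p = 0.41). Its size depended on how the libraries without reads were treated, at 2.19 with a prior count of 0.5, and it was 0.39 against Cdh5 alone. Without library 8 it was 0.74, and without library 14 it was 0.72. It did not pass under any of these. Sca-1- libraries 10, 16 and 22, at -3.47, -3.67 and -3.73, lay inside the Sca-1+ range of -4.92 to -2.83, and libraries 8 and 14, without reads, at -7.79 and -7.90. The endothelial mean of libraries 8 and 14 (4.16 and 4.27) was above that of library 10 (3.11). The summed share of the same genes went the other way, at 0.0736% and 0.0751% against 0.0823% of the counts. The part of endothelial RNA in the absence of Apln reads was not tested.

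In the edgeR fit with libraries scaled to the general endothelial genes, the log2 difference of Apln was 0.77 (SE 1.10, adjusted p = 0.51) and that of Aplnr 2.42 (SE 0.97, adjusted p = 0.034). Under this scaling the median log2 fold change of all genes moved from 0.07 to -4.40, and 1.34% of the genes were called higher and 88.8% lower in Sca-1+. The 17 endothelial genes that set this scale were themselves unequal, with 5 called higher and 2 lower. These 2 values do not show that ligand and receptor differ from each other, since the within-library ratio passed its test at a prior count of 2 but not at 0.5.

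**Figure D2:**
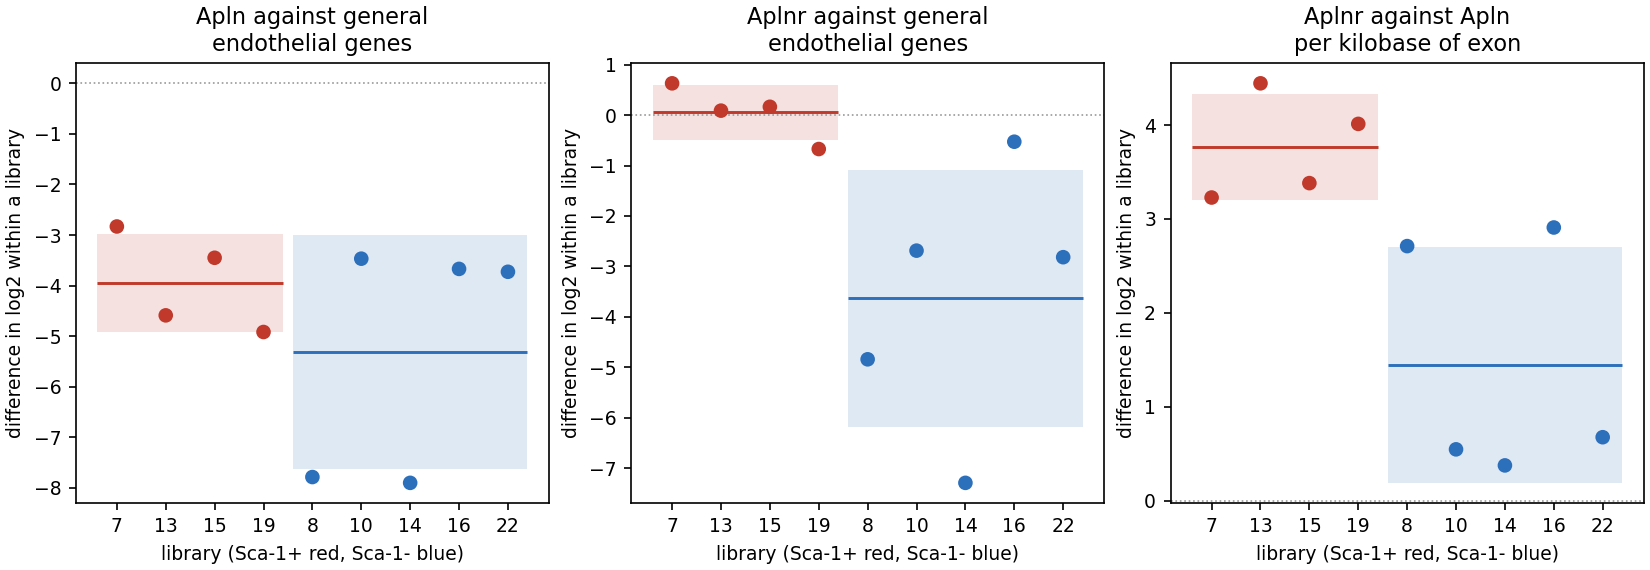
Within-library differences in log2 by library: Apln and Aplnr each minus the average log2 CPM of 17 endothelial genes, and Aplnr minus Apln per kilobase of exon (prior count 2); lines are group means and bands span 1 SD on either side. Sca-1- libraries 10, 16 and 22 lie within the Sca-1+ range for Apln, only library 16 does so for Aplnr, and the 4 Sca-1+ libraries lie above all Sca-1- libraries in the right panel.

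Other pathway genes were described by lists, whose counts are read against the shares over all genes given above. Of 8 genes that process or cleave the peptides, 6 were tested, 2 were higher and 1 was lower in Sca-1+, with a median log2 fold change of 0.99. Of the 2 higher ones, Pcsk1 had no count in any Sca-1- library. It passed the filter through Sca-1+ alone, and its fitted value depends on the prior count. Pcsk5, a proprotein convertase, averaged 58.7 ± 14.5 CPM (SD, n = 4) and 9.58 ± 10.2 CPM (n = 5), with a log2 difference of 2.62 (edgeR adjusted p = 0.043). Pcsk6, another convertase, was lower in Sca-1+, at 8.73 ± 7.64 against 78.6 ± 54.7 CPM (edgeR adjusted p = 0.0034). Furin and Pcsk7, further convertases of the list, did not pass the test. Klkb1, plasma kallikrein, had 4 counts in Sca-1+ and 5 in Sca-1- over all libraries and failed the filter. With DESeq2 size factors 1 gene of this list was higher, and under endothelial scaling 1 was higher and 4 were lower.

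Of 10 genes of receptor coupling and desensitization, all of them tested, 1 was higher and 5 were lower in Sca-1+, with a median of -0.64. Gna11, a G protein alpha subunit of the Gq class, was higher, at 146 ± 13.4 CPM (SD, n = 4) against 19.3 ± 5.74 CPM (n = 5), a log2 difference of 2.91 (SE 0.26, edgeR adjusted p = 3.5e-05). Both beta-arrestins, which desensitize the receptor and signal from it, were lower. Arrb2 averaged 31.2 ± 5.86 against 571 ± 293 CPM, and Arrb1 31.2 ± 6.52 against 163 ± 112 CPM. Gnaq, the other Gq class subunit listed, was also lower, with a log2 difference of -2.20 (edgeR adjusted p = 0.013). None of the inhibitory subunits Gnai1, Gnai2 and Gnai3 passed the test. Under endothelial scaling all 10, Gna11 among them, were lower. For genes lower in Sca-1+, in this list and the others, which cells of the Sca-1- fraction carried the RNA was not tested.

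Among 16 downstream effectors, 6 were higher and 4 lower, with a median of 0.31. Nos3, the endothelial nitric oxide synthase, was higher, at 141 ± 23.2 CPM (SD, n = 4) against 3.58 ± 3.05 CPM (n = 5), a log2 difference of 5.28 (SE 0.73, edgeR adjusted p = 3.2e-04). The flow-responsive transcription factors Klf2 (605 ± 285 against 85.0 ± 15.7 CPM) and Klf4 (146 ± 43.7 against 11.3 ± 4.90 CPM) were higher too. Prkaa2, a catalytic subunit of AMP-activated kinase, was lower, at 1.30 ± 0.902 against 78.2 ± 65.1 CPM. The histone deacetylase Hdac5 was lower as well, with a log2 difference of -2.55. Under endothelial scaling 14 of the 16 were lower and none was higher.

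Of 16 upstream regulators, 9 were higher and 2 lower, with a median of 1.37. Epas1, a hypoxia-inducible factor, averaged 193 ± 22.8 CPM (SD, n = 4) and 2.42 ± 1.10 CPM (n = 5), a log2 difference of 6.30 (SE 0.41, edgeR adjusted p = 1.3e-05). Dll4, the Notch ligand of tip and arterial cells, averaged 177 ± 26.0 and 3.39 ± 1.66 CPM. Tek, the angiopoietin receptor Tie2, averaged 547 ± 81.6 and 24.2 ± 13.7 CPM. Angpt1, its ligand, was lower in Sca-1+, at 4.89 ± 3.55 against 316 ± 186 CPM, as was the forkhead factor Foxo3 (10.7 ± 2.98 against 45.7 ± 34.4 CPM). Under endothelial scaling 2 of the 16 were higher and 12 lower.

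Of 10 receptors related to Aplnr, 5 were tested, 3 were higher and none was lower, with a median of 2.74. Of the 3 higher ones, Bdkrb2 had no count in any Sca-1- library. It passed the filter through Sca-1+ alone, and its fitted value depends on the prior count. Gpr182, an endothelial receptor, averaged 108 ± 41.2 CPM (SD, n = 4) and 7.36 ± 6.77 CPM (n = 5), a log2 difference of 3.86 (edgeR adjusted p = 0.0021). Agtr1a, an angiotensin II receptor and close relative of Aplnr in sequence, was low, at 4.45 ± 2.22 against 0.672 ± 0.811 CPM (edgeR adjusted p = 0.044). With DESeq2 size factors 2 receptors of the list were higher, and under endothelial scaling 1 was higher and 2 were lower. Agtr2, Gpr15 and Gpr25 had no count in any library. Agtr1b had 22 counts in Sca-1+ and 0 in Sca-1-, Bdkrb1 13 and 38, and both failed the filter. Under endothelial scaling the medians of the lists of processing, coupling, downstream, upstream and related receptor genes were -3.64, -5.30, -4.15, -3.07 and -2.14, so the direction of 4 of them turned, beside -4.40 over all genes.

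**Figure D3:**
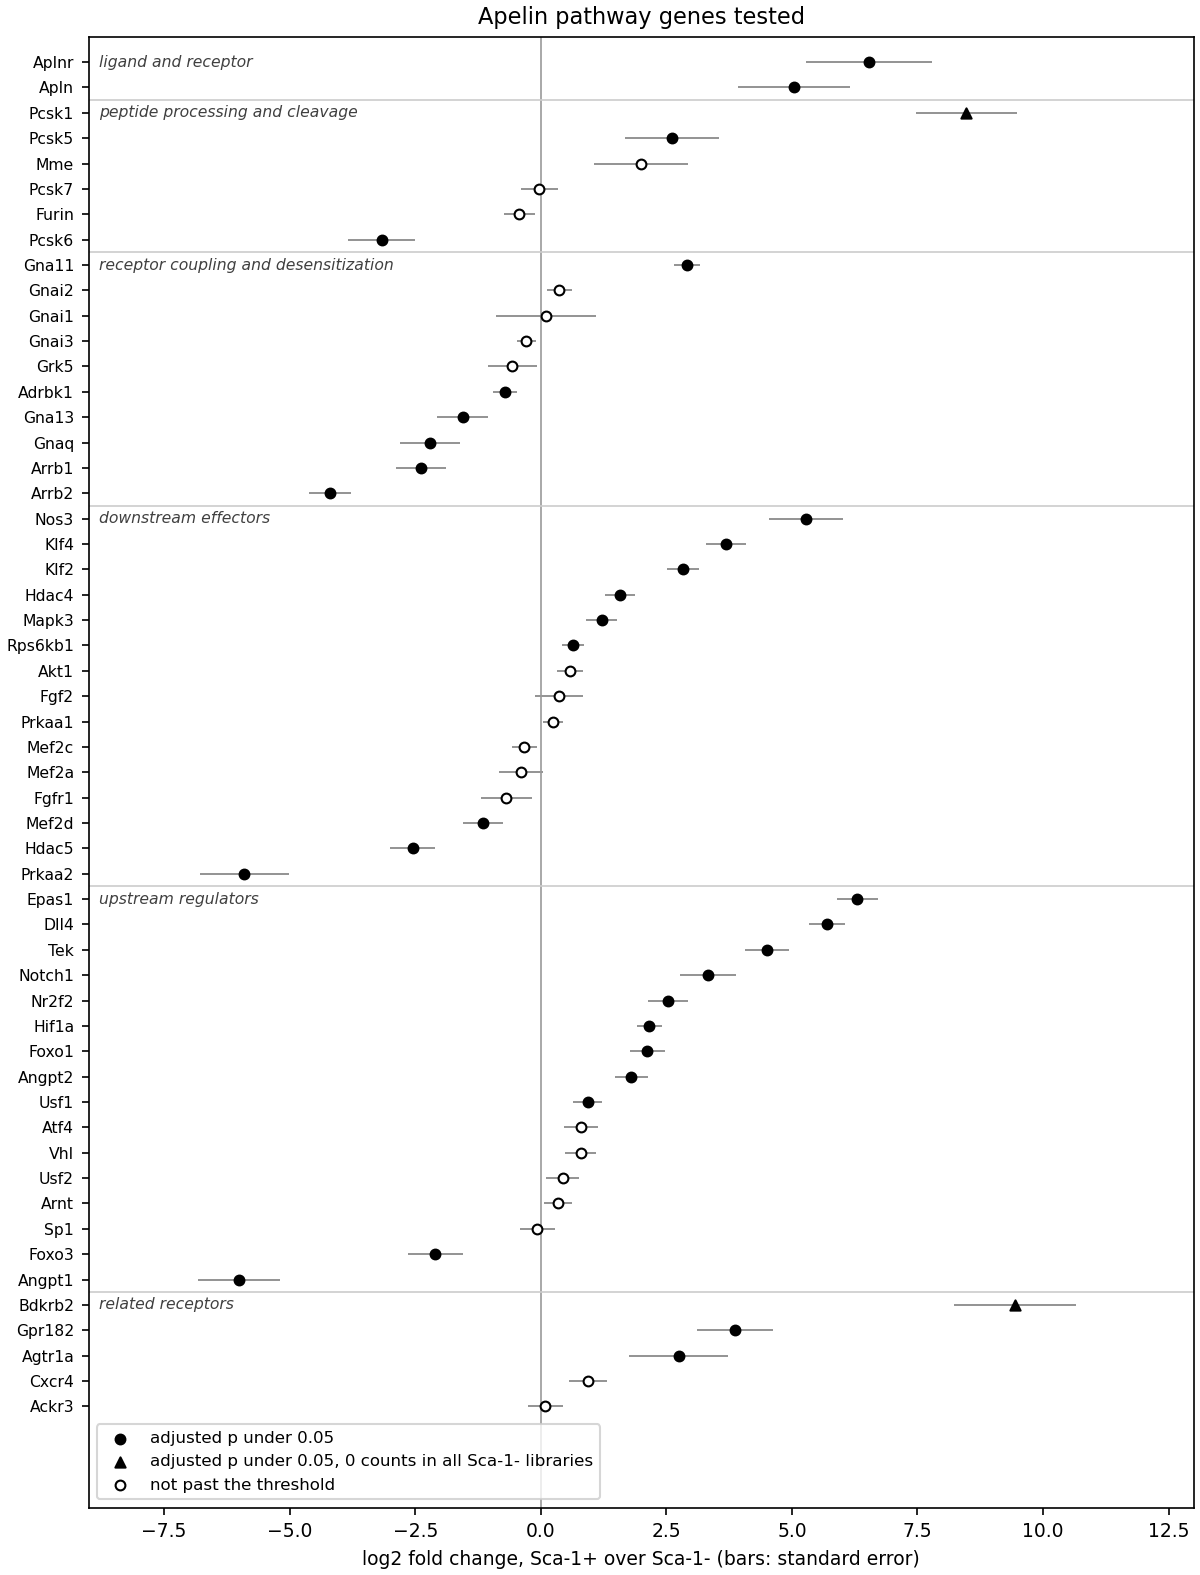
Log2 fold change, Sca-1+ over Sca-1-, of the apelin pathway genes tested and reported, by list, with bars of 1 standard error on either side; filled symbols had an adjusted p under 0.05 by edgeR, and open ones did not. Triangles mark Pcsk1 and Bdkrb2, which had 0 counts in every Sca-1- library, so that their fitted value depends on the prior count; Adrbk1 is the deposited name of Grk2. Aplnr lies at 6.53 and Apln at 5.05, while 1 of the 10 coupling and desensitization genes, Gna11, is called higher.

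Apln marks tip cells and Aplnr venous cells during vessel growth, so genes of these states were set beside them. Of 17 tip cell genes, 15 were higher and none was lower, with a median of 3.03. Igfbp3, a secreted insulin-like growth factor binding protein, averaged 762 ± 108 CPM (SD, n = 4) and 9.57 ± 4.71 CPM (n = 5). Kcne3, a potassium channel subunit of tip cells, averaged 59.2 ± 24.6 and 1.23 ± 2.14 CPM. Of 14 arterial genes, 13 were higher and none was lower, with a median of 4.82, among them the transcription factor gene Sox17 (292 ± 28.1 against 1.06 ± 1.17 CPM) and the connexin gene Gja5 (53.9 ± 29.1 against 0.341 ± 0.199 CPM). Sema3g, an arterial semaphorin, averaged 23.5 ± 4.67 CPM in Sca-1+ and had 1 count in all of Sca-1-.

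Venous and sinusoidal genes were higher in Sca-1+ as well, 9 of 11, with 1 lower and a median of 3.64. Emcn, encoding the sialomucin endomucin of veins and sinusoids, averaged 855 ± 163 CPM (SD, n = 4) and 19.2 ± 9.85 CPM (n = 5). Ackr1, a chemokine-binding receptor of venules, averaged 543 ± 242 and 13.4 ± 10.8 CPM. Stab2, a scavenger receptor of sinusoids, averaged 278 ± 120 and 12.2 ± 16.3 CPM. Lyve1, a hyaluronan receptor, was the lower one, at 1.26 ± 1.74 against 96.4 ± 42.2 CPM. Against the general endothelial genes, 2 tip cell genes were higher and 8 lower, 5 arterial genes were higher and none lower, and 2 venous and sinusoidal genes were higher and 5 lower. The medians of the 3 lists on that scale were -1.35, 0.55 and -0.60. The lists are not separate, since Dll4 and Unc5b are in both the tip cell and the arterial list. Flt4 is in both the tip cell and the venous list. Kdr, a tip cell gene here, is also among the endothelial genes that set the scale.

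Genes of other cells moved with the fractions too. Of 11 smooth muscle and pericyte genes, all of them counted in both fractions, 8 were higher in Sca-1+ and none was lower, against none higher and 2 lower under endothelial scaling. Their summed share of the counts was 0.0836% to 0.187% in Sca-1+ and 0.00118% to 0.0113% in Sca-1-, highest there in library 16, which also had the most Aplnr. Kcnj8, a gene of this list, is also among the genes nearest to Aplnr in pattern given below, so the 2 observations are not independent. Of 10 stromal and adipocyte genes, 3 were higher and 2 lower, with 0.0281% to 0.112% of the counts in Sca-1+ and 0.302% to 2.79% in Sca-1-, and Lep at 0 in all libraries. Of 8 leukocyte genes 6 were lower, among them Ptprc, which encodes CD45 (0.843 ± 1.20 against 28.9 ± 14.1 CPM), with shares of 0.0142% to 0.0234% and 0.162% to 0.307%. Of 8 erythroid genes 6 were lower, with shares of 0.00560% to 0.0227% and 0.0590% to 0.123%. No gene of these last 2 lists was at 0 in a whole fraction. The part of these cells in the levels of Apln and Aplnr was not tested.

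The genes closest in pattern were found by the root mean square difference in log2 CPM over the 9 libraries, after centring each gene on its mean, among genes of like average level. For Apln these were Cdk18 (0.73), Kif26a (0.87), Dkk2 (0.88), Gm16340 (0.89) and Tlr4 (0.94), where the median of 8275 candidates was 3.24. Dkk2, a secreted modulator of Wnt signalling, averaged 16.9 ± 7.84 CPM (SD, n = 4) and 0.473 ± 0.424 CPM (n = 5). Gm16340 is annotated as an unprocessed pseudogene, so its counts may include reads of its parent gene. For Aplnr they were F8 (0.71), Thrsp (0.99), Sox17 (1.05), Kcnj8 (1.07) and Entpd1 (1.10), where the median of 3783 candidates was 4.47. F8, which encodes coagulation factor VIII, averaged 115 ± 39.6 and 1.48 ± 1.91 CPM. The difference between Apln and Aplnr themselves was 1.46. All of these values describe 9 libraries of 2 fractions, and the large step between the fractions is common to each.

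**Figure D4:**
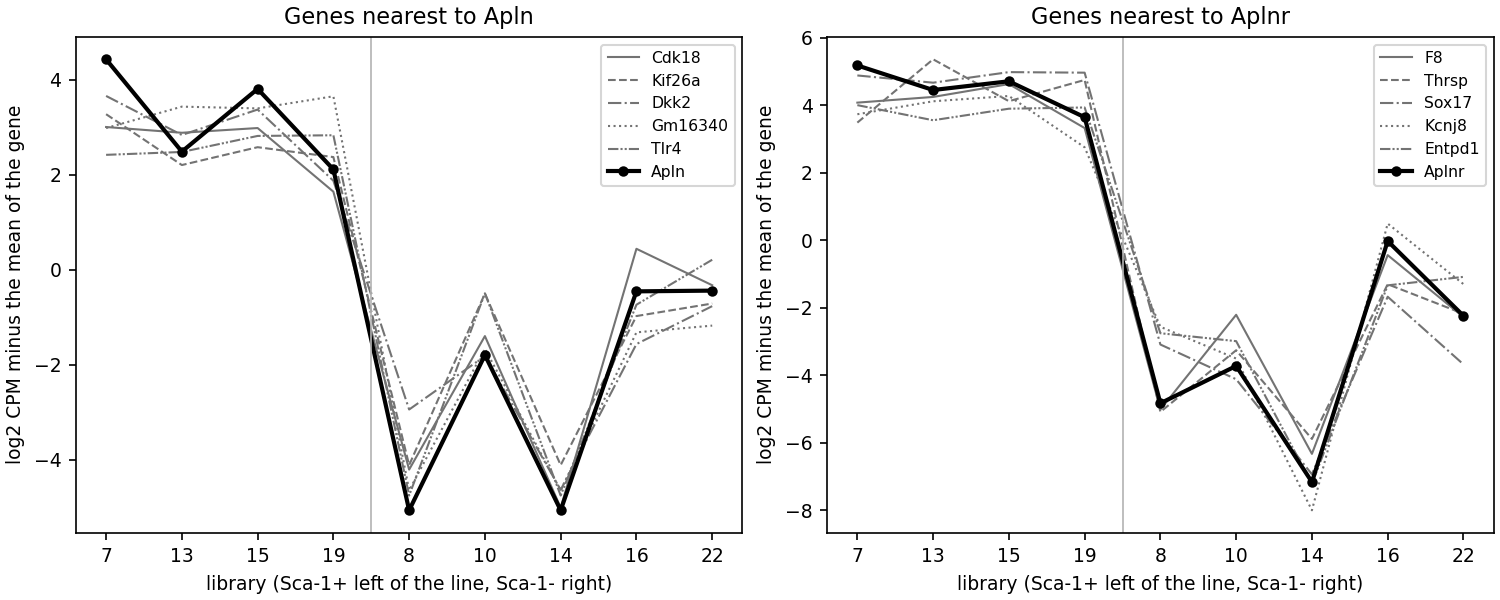
Log2 CPM (prior count 2) of Apln and Aplnr (black) and of the 5 genes nearest to each (grey), minus each gene's mean over the 9 libraries; lines join the values of a gene and do not mark an order of libraries. Each gene steps down from Sca-1+ to Sca-1- and is at its lowest in library 14, where Apln, Kif26a, Gm16340 and Tlr4 had 0 counts as they did in library 8. Within Sca-1+ Apln has the widest spread of the genes in its panel.

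Without a stated use of strand in counting, reads of genes whose exons overlap cannot be told apart. This touches Nos3, Dll4, Angpt1, Gpr182, Sox17, Gja5, Kcne3, Stab2, Cdk18, Furin and Pcsk7, which overlap exons on the opposite strand, and Ackr1, Pcsk6, Hdac5, Arrb2 and Klkb1, which overlap exons on their own strand. Gpr15 and Gpr25, which had no count, also overlap other exons.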

How the data were processed

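Libraries were made from 2 ng of total RNA with a template-switching kit (SMART-Seq v4). The authors deposited whole-number read counts per gene, not normalized; the submitters' notes name STAR, featureCounts and the mm10 build, and versions and the use of strand are not given in the sources used here. Groups came from the labels. The counts include PCR copies, and nothing in the labels says that libraries came from separate mice, so p-values measure the spread between these libraries. The Poisson and binomial intervals take reads as independent, so PCR copies may make them too narrow.

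The main test was edgeR's quasi-likelihood test (edgeR 4.0.16, R 4.3.3) after filterByExpr (minimum count 10, minimum total 15) and TMM. Its p-values, two-sided, were adjusted by the Benjamini-Hochberg method over 15937 genes, with a threshold of 0.05. Each standard error (SE) of a log2 difference, also in the plot, was derived from that difference and the F statistic. It is not an estimate that edgeR gives. The method was checked on simulated counts, where 37.2% of 86 log2 changes of 2 and 87.7% of 106 log2 changes of 4 were recovered. A gene that did not pass may therefore still differ. Among the 15453 genes of that simulation far fewer changed than were called here, so its rates need not hold for these data. Within-library differences were compared by exact permutation in SciPy 1.17.1. DESeq2 1.42.0, limma voom 3.58.1 and other scalings, filters and libraries were alternatives. Same-fraction libraries differed by more than sampling noise in every pair, and none was a copy.

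Positions and exon lengths came from GENCODE M21, which held 45143 of the 46078 gene IDs. RefSeq supplied the Apln promoter, and 1 of the 2 members matched its promoter table. The members and gene lists were chosen with earlier results of these data known. Of 175 list entries all matched a deposited gene, 1 by an older symbol. Genes named were, in each list, up to 3 called genes at either end with an average log2 CPM of at least 1, the failed ligand, processing and receptor genes, the sort and check genes, and the 5 nearest genes of each member. Hif1a and other list genes are shown only in the plot, and some list genes are counted in their list but not reported here.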

Additional observations from a re-analysis of the deposited data

Results flagged for a closer look

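Values of 115 groups of 4 or 5 libraries (a gene or a share of counts in 1 fraction) were examined for a library far from the others by Dixon's ratio, and 4 stood apart. Chance gives about 1 in 20 such groups. In Sca-1+ library 19, the log2 CPM of Kcne3 was 4.54, where the other 3 libraries had 6.07 to 6.30, and that of Cdk18, the gene nearest to Apln in pattern, was 3.02, where they had 4.26 to 4.39. The share of erythroid genes in the same library was 0.0227% of the counts, against 0.00560% to 0.00681%. Apln and Aplnr were also lowest of Sca-1+ in library 19, but neither stood apart there. In Sca-1- library 22, Sema3g had a log2 CPM of -3.04 from 1 count, where the other 4 libraries had 0 counts (-3.63).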

How the results depend on the processing

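Both members were higher in Sca-1+ under every alternative run, and Aplnr kept an adjusted p under 0.05 in all 25. Apln kept it in 21 of 25. Its log2 difference was 0.77 with endothelial scaling, 0.49 when Myct1, the general endothelial gene that was not higher in Sca-1+, was also left out of that scale, 3.93 in the 5 libraries with Xist alone and 4.10 in the 4 with the CD452 tag in their titles. The number of genes called, 7137, was 14370, 14534, 3646 and 1211 under these, and 4732 in the 5 libraries without that tag. The scale without Myct1 and the divisions by title or by Xist and Y-linked counts were chosen after seeing the data. Leaving out each library in turn gave 4.55 to 5.50 for Apln, 6.14 to 8.25 for Aplnr and 5957 to 6969 genes. DESeq2 gave 5.04, 6.52 and 8240 genes, and limma voom 6.38, 8.16 and 7732. With library totals alone the median log2 fold change of all genes was 0.43 in place of 0.07. The difference between the fractions in the log2 ratio of receptor to ligand, 2.32, was 1.73 with a prior count of 0.5, which lost the call (exact permutation p = 0.13), and 2.06 to 2.69 when each library was left out. For Apln against the endothelial mean it was 0.72 to 1.82. The difference of Aplnr from the endothelial mean was 2.77 to 4.46 when each library was left out (exact permutation p 0.029 to 0.071). Endothelial scaling moved the counts of most lists, and the cause was not tested beyond its shift of all genes. No replicate number stands in both fractions. A replicate block on the 3 pairs of consecutive end numbers (correlations of 0.147, 0.148 and 0.042, which do not establish a pairing) called 4340 genes, against 5360 in the same 6 libraries unblocked. Apln was at 7.07 and Aplnr at 8.78 with the block, against 5.77 and 6.36 in those 6 libraries unblocked. Each of these pairs also shared its class of Xist and Y-linked counts, and the titles give 1 shared number to 15 and 16 and CD452 to 13 and 14, without saying what these mark. Depth limits Apln in Sca-1-, where 114 counts in 5 libraries carry the level.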
